A study of Mus musculus with 6 samples.

Results

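Sialyltransferases are Golgi enzymes that cap the sugar chains of glycoproteins and glycolipids with sialic acid. The 9 genes described here, St6gal1, St3gal1, St3gal2, St3gal3, St3gal4, St3gal5, St3gal6, St6galnac4 and St6galnac6, were taken by their symbols in the array's platform annotation. The set was chosen by the measured difference between knockdown and control arrays: St6gal1 stood higher in knockdown in earlier results of these same arrays, and the other genes belong to its family. The 9 genes had 22 probes among 45281 on the array, and 8 of the 9, with 15 probes, were detected well enough to be tested. They were tested within a fit over 9200 genes.

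Bulk RNA came from 21EM15, a mouse line of lens epithelial origin, so that fewer cells of a type and less RNA per cell cannot be told apart. The 3 control samples carried a lentiviral construct with GFP, and the 3 knockdown samples carried one that expresses an shRNA, a hairpin that silences its target by RNA interference, against Tdrd7, which encodes a Tudor domain protein of RNA granules. No hairpin is named for the controls, so effects of the constructs and of reduced Tdrd7 cannot be told apart. The labels do not say whether replicates came from separate cultures, so any p-value reflects sample-to-sample spread that may be technical. Arrays 1 to 3 are the controls and arrays 4 to 6 the knockdown samples.

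The knockdown was visible in its target. The Tdrd7 signal was 854 ± 50.6 scanner units in control (SD, n = 3) and 285 ± 29.7 after knockdown. The log2 difference was -1.85 ± 0.28 (SE), with p = 0.1 by exact permutation (two-sided), which is the lowest p possible for groups of 3. On each array 37.2% to 38.8% of probes were detected. Array 4 stood apart, its values correlating with those of the others at 0.957 on average, where the rest were at 0.971 to 0.976. Of 12 markers of lens epithelium 7 were tested, among them Pax6, Cryab and Sox2, while Foxe3, Pitx3 and Slc1a3 were detected on no array. Of 8 fibroblast or mesenchyme markers 6 were tested, of 5 endothelial markers only Ramp2, and the lens fibre gene Crygs was detected on 4 arrays without entering the test. No probe for the markers of blood or liver was detected. Across the 9200 genes, 0 passed an adjusted p of 0.05 in limma's test of knockdown against control, where the lowest adjusted p was 0.765, and 303 genes (3.29%) had an unadjusted p under 0.05.

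The number after St in each symbol names the carbon of the receiving sugar to which sialic acid is joined, and the letters after it name that sugar. St6gal1 is the main enzyme that caps the galactose ends of N-linked chains in this way, and it is known for changing the behaviour of integrins and death receptors and the binding of galectins. The St3gal enzymes compete for galactose ends on N-linked chains, mucin-type O-linked chains and glycolipids, and the St6galnac enzymes extend O-linked chains and gangliosides. A cell's own set of sialyltransferases shapes which sialic acid linkages it displays.

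St6gal1 is transcribed in mice from more than 1 promoter, and the start that is used differs between tissues. The RefSeq table (GRCm38.p6) holds 3 start sites for this gene on chromosome 16, the second 1281 bases and the third 65730 bases downstream of the first. The 250 bases before each start are shown because St6gal1 had the largest difference among the tested members and its array probes are not assigned to a start. Capitals mark the CCAAT box, on either strand (CCAAT or ATTGG).
St6gal1 start 1, chr16:23224490-23224739, plus strand: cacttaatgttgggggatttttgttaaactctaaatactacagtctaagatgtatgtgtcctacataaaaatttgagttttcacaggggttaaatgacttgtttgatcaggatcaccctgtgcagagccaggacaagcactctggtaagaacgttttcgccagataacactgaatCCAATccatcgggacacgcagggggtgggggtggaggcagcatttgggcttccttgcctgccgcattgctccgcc
St6gal1 start 2, chr16:23225771-23226020, plus strand: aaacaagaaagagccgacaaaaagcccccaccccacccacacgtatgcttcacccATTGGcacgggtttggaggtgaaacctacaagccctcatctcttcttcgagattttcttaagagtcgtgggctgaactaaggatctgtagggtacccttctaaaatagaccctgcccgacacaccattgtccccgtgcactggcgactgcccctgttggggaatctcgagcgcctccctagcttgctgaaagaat
St6gal1 start 3, chr16:23290220-23290469, plus strand: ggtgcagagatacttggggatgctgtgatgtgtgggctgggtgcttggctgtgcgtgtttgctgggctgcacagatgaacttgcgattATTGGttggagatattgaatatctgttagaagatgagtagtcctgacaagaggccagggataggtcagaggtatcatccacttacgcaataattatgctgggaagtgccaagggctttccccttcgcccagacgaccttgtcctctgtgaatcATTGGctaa

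Each of these 3 windows held a CCAAT box, a match found in 33.8% of 32851 RefSeq windows of this length. None of the 3 held a GC box (GGGCGG on either strand, in 32.7% of all windows) or a TATA box (TATAAA on either strand, in 12.4%). Their GC content was 47.2%, 52.8% and 49.6%, against a median of 52.4% over all windows. The table held 10 windows for 7 of the 9 genes, and those of St3gal3, St3gal4, St3gal5 and St6galnac4 differed in composition from those of St6gal1, with a GC content of 65.2% to 72.8% and 2 or 3 GC boxes each. St3gal6 had 2 windows, one of 34.8% GC with no GC box and one of 64.4% GC with 4. The single window of St6galnac6 held none of the 3 motifs. These matches describe letters in the genome and were not measured in the cells.

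Among the 8 tested members, St6gal1 had the largest difference between the groups. The signal of its detected probe, ILMN_2705166, was 372, 241 and 266 scanner units on control arrays 1, 2 and 3 and 497, 577 and 412 on knockdown arrays 4, 5 and 6. Every knockdown array thus lay above every control array before any normalization. After background correction and quantile normalization the values were 8.02, 7.80 and 7.89 log2 units in control and 8.54, 8.82 and 8.93 in knockdown. The groups stayed apart, with a gap of 0.52 between the highest control and the lowest knockdown array. The mean was 7.90 ± 0.11 in control and 8.76 ± 0.20 in knockdown (SD, n = 3), a difference of 0.86 ± 0.18 (SE) or 1.82-fold. Because the gene was chosen for this difference, the value is given as a description and no test is attached to it. It ranked 31 among the 9200 genes ordered from the highest difference downward, and its within-group SD of 0.16 lay at percentile 17.9 of all genes, among the steadier ones.

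A second St6gal1 probe on the array, ILMN_2525980, names the same transcript record and was detected on none of the 6 arrays. Its signal lay between 63.4 and 82.2 scanner units, close to the array medians of 72.6 to 82.6. The difference rests on 1 probe for this reason.

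**Figure D1:**
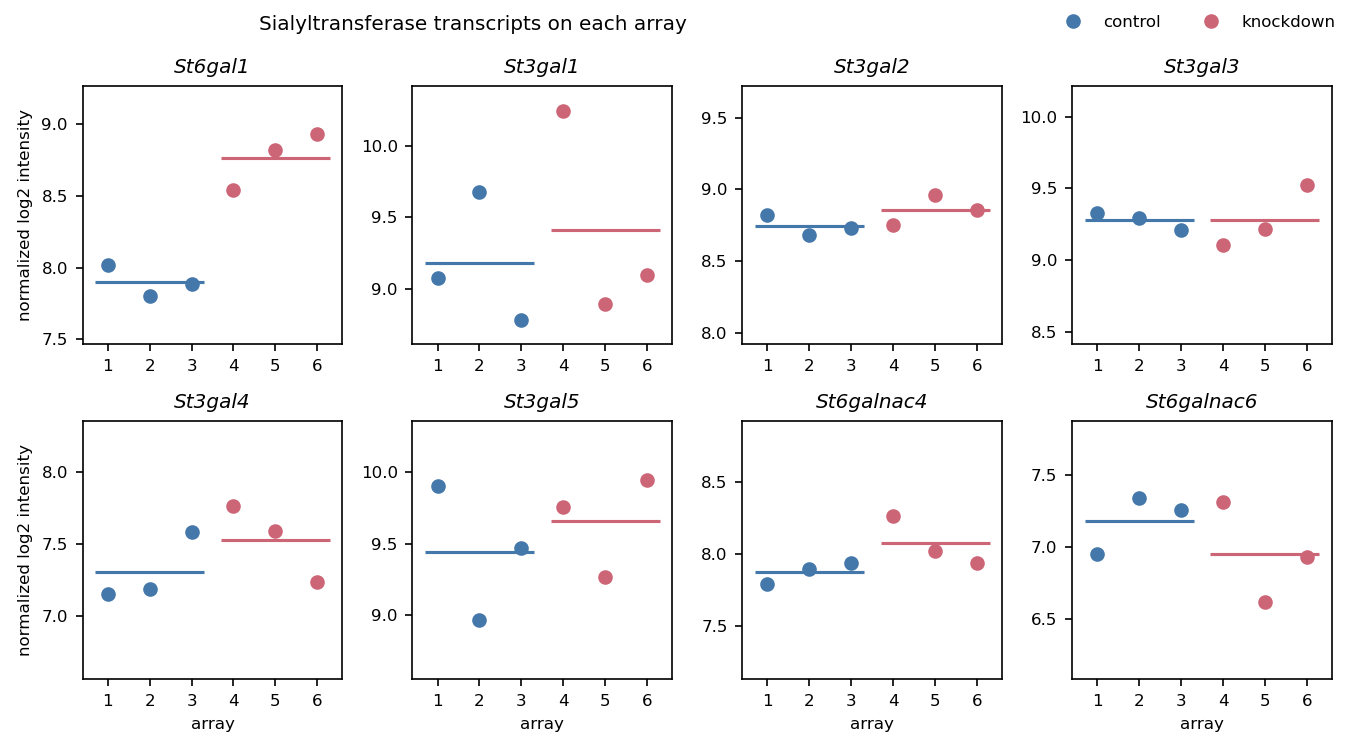
Normalized log2 intensity of the 8 tested sialyltransferases on each array, with controls (1 to 3) in blue, knockdown (4 to 6) in red and horizontal lines at the group means. Every panel spans the same range of log2 units, and levels are not comparable between panels. The St6gal1 arrays separate by 0.52, while those of St3gal1 spread over 1.46 log2 units without following the groups.

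The enzymes that compete for the galactose ends of N-linked chains did not mirror St6gal1. St3gal3, which acts on N-linked chains and glycolipids, was at 9.33, 9.29 and 9.21 log2 units in control and 9.11, 9.22 and 9.52 in knockdown. The knockdown arrays lay on both sides of the controls, for a difference of 0.0043 ± 0.18 (SE; 95% confidence interval -0.41 to 0.42). St3gal4, which works on the same kind of chain and makes part of the ligands for selectins, was at 7.15, 7.19 and 7.59 in control and 7.77, 7.59 and 7.23 in knockdown. Here too the groups overlapped, control array 3 being level with knockdown array 5. The St3gal4 difference was 0.22 ± 0.21 (SE), with an interval from -0.27 to 0.71. St3gal6, the other selectin-ligand enzyme of this type, was not detected on any array by either of its 2 probes, which read 63.7 to 71.7 and 56.8 to 62.4 scanner units. The intervals of St3gal3 and St3gal4 leave room for changes of a size that these arrays could not resolve.

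Among the enzymes of mucin-type O-linked chains, St3gal1 varied most. St3gal1 caps the core 1 disaccharide, and its brightest probe was at 9.08, 9.68 and 8.79 log2 units in control and 10.24, 8.90 and 9.10 in knockdown. Array 4 was the highest and control array 2 the second highest, and the groups overlapped widely. Its second detected probe showed the same order at the top, with 6.95 on array 4 and 6.62 on array 2 against 5.58 to 6.34 on the others. The St3gal1 difference of 0.23 ± 0.38 (SE, interval -0.65 to 1.11) rested on array 4 and was -0.18 without it. St3gal1 lay at percentile 92.8 of all genes for its within-group SD.

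St3gal2, which acts on the same core 1 sugar and on gangliosides, was steady by comparison. It was at 8.82, 8.68 and 8.73 log2 units in control and 8.75, 8.96 and 8.85 in knockdown. Its within-group SD of 0.088 was the lowest of the 8 genes, at percentile 2.85 of all genes tested. The groups overlapped, with a difference of 0.11 ± 0.16 (SE, interval -0.27 to 0.48), and its dimmer probe was at -0.091.

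St6galnac4 adds a second sialic acid to O-linked chains that already carry one. Its brightest probe was at 7.79, 7.90 and 7.94 log2 units in control and 8.27, 8.02 and 7.94 in knockdown. The groups were separated by a gap of only 0.0040, between control array 3 and knockdown array 6. The difference was 0.20 ± 0.17 (SE, interval -0.20 to 0.60), while the other 2 detected St6galnac4 probes were at 0.036 and -0.068 with overlapping groups. On the scanner values, before normalization, the brightest probe also overlapped, with 238 on array 6 against 329 on array 1.

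St3gal5 makes GM3, the ganglioside from which most others are built. It was at 9.90, 8.97 and 9.47 log2 units in control and 9.76, 9.26 and 9.95 in knockdown. The spread within each group exceeded the difference of 0.21 ± 0.28 (SE, interval -0.44 to 0.87), and without control array 2, the lowest, the difference was -0.027. The second St3gal5 probe gave 0.21 as well and was likewise highest on array 6 and lowest on array 2. The pair of probes thus tracked differences between single arrays that did not follow the groups.

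St6galnac6, which makes a branch of complex gangliosides, was the only tested member of the 8 below control on its brightest probe. It was at 6.95, 7.34 and 7.26 log2 units in control and 7.31, 6.62 and 6.93 in knockdown. The groups overlapped, at -0.23 ± 0.23 (SE, interval -0.75 to 0.29). Its other detected probes disagreed in sign, one at 0.19 and one at -0.14, so these data give the gene no direction. In the mouse genome St6galnac6 is the next protein-coding gene after St6galnac4, 12 bases on in the RefSeq annotation.

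**Figure D2:**
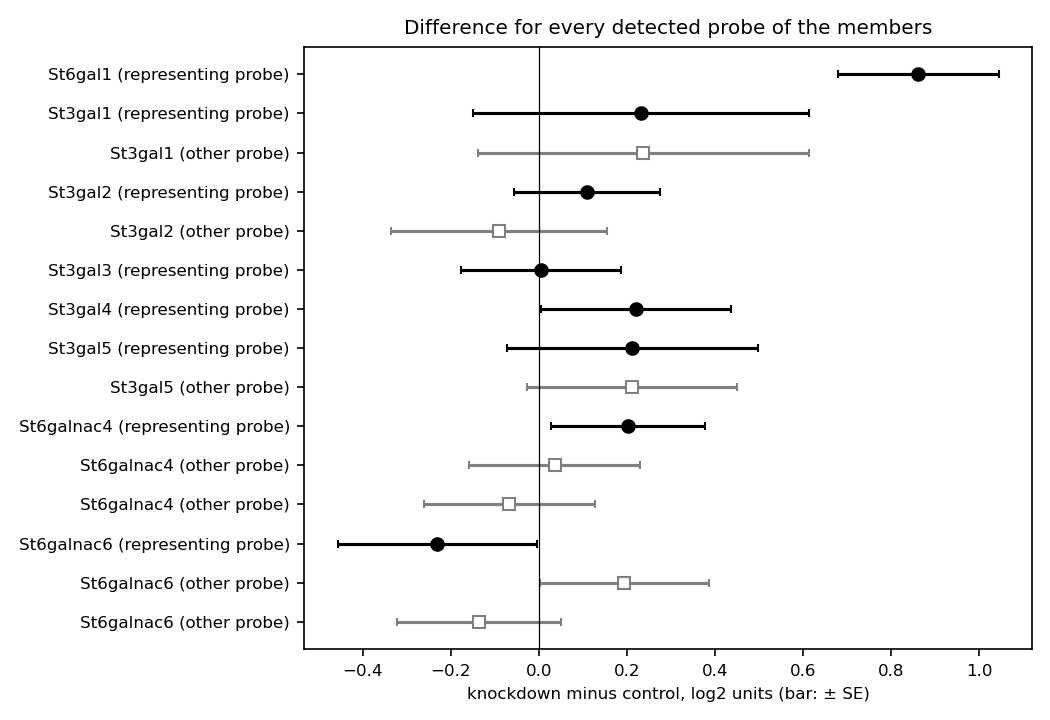
Difference between knockdown and control, in log2 units with its SE, for the 15 detected probes of the 8 tested sialyltransferases. Filled circles are the probe that represents each gene and open squares its other probes. The St6gal1 probe, at 0.86, lies apart from the others, which run from -0.23 to 0.24.

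Apart from St6gal1, 6 of the 7 tested members were above control, with differences from -0.23 to 0.23 and a median of 0.20. Over all 9200 genes 52.3% were above control and the median difference was 0.014. Leaving out any single array lowered the members' median of 0.20. It was 0.15, 0.078 and 0.10 without control arrays 1, 2 and 3, and 0.10, 0.19 and 0.11 without arrays 4, 5 and 6. On the mean of each gene's probes the median was 0.057. For 5 of these 7 genes the difference was smaller than the pooled SD within groups, the exceptions being St3gal2 and St6galnac4. The arrays of the groups did not overlap for 2 of the 8 tested members, St6gal1 and St6galnac4, both higher in knockdown, where 7.83% of all genes tested did not overlap, 4.33% with knockdown higher and 3.5% with knockdown lower. As the members were chosen with this comparison in view, nothing is read from these shares. None of the 8 passed the limma threshold over all genes. Of the 5 genes with several detected probes, 3 had probes of both signs, St3gal2, St6galnac4 and St6galnac6.

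The members above control were not high on the same arrays. Array 4 held the highest value for 3 of the 8 genes, St3gal1, St3gal4 and St6galnac4, and array 6 for another 3, St6gal1, St3gal3 and St3gal5. The mean deviation of the 8 genes from their own means was 0.25 log2 units on array 4, -0.041 on array 5 and 0.091 on array 6. St6gal1 itself was lowest of the knockdown arrays on array 4, and without that array its difference was 0.97. Leaving out each array in turn gave St6gal1 differences from 0.78 to 0.97.

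**Figure D3:**
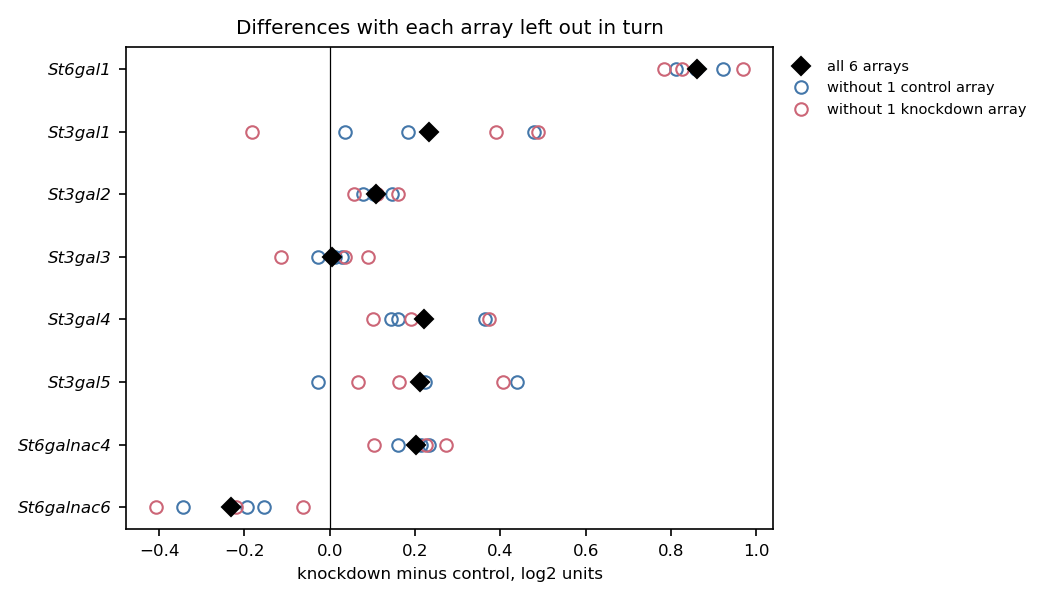
Difference between knockdown and control, in log2 units, for the 8 tested sialyltransferases with all 6 arrays (diamonds) and with 1 control array (blue circles) or 1 knockdown array (red circles) left out. St6gal1 stayed between 0.78 and 0.97, while St3gal1, St3gal3 and St3gal5 had values on both sides of 0.

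Group means of cell type markers lay above or below control without any marker passing the limma threshold. The part of these markers in the sialyltransferase values was not tested. Of 8 fibroblast and mesenchyme markers 6 were tested and all 6 were above control, against 52.3% of all genes, with a median difference of 0.61 log2 units. The groups overlapped for each of the 6, none passed the limma threshold (lowest adjusted p = 0.998), and Col1a2 and Lum were detected on no array. Their summed normalized intensity ran from 5146 to 9230 in control and from 7691 to 16497 in knockdown, the highest being array 4. The sum of 7 lens epithelium markers was also highest on array 4, at 12144 against 5628 to 9519 on the other arrays. This sum is led by its brightest genes, Cryab and Cp, at 12.72 and 12.16 log2 units on array 4. Pax6, Cryab, Six3 and Cp were highest on array 4, Prox1 and Sox2 were not, and Cdh2 was lowest there. Of the 7 tested lens epithelium markers 3 were above and 4 below control, with a median difference of -0.21 log2 units. Their differences ran from -0.65 ± 0.53 (SE) for Prox1 to 1.00 ± 0.33 for Pax6. The groups were separate for 1 of the 7, Sox2 at -0.50 ± 0.22, where 7.83% of all genes tested did not overlap. Ramp2, the only tested endothelial marker, was at -0.71 ± 0.20, also with separate groups. None of these markers passed the limma threshold.

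Most of the other sialyltransferase genes were not detected by their probes. Of its 11 other genes 2 were tested and 8 were detected on no array, among them St6gal2, the only other enzyme that makes the linkage of St6gal1, and St8sia1, which builds gangliosides with chained sialic acids. St6galnac2, an enzyme of O-linked chains, was at 8.88, 9.05 and 8.48 log2 units in control and 9.94, 9.46 and 8.89 in knockdown. The groups overlapped, with a difference of 0.62 ± 0.29 (SE, interval -0.05 to 1.29; limma adjusted p = 0.998), and 0.37 without array 4. A second St6galnac2 probe, too rarely detected to be tested, was at -1.76. St8sia2, which makes polysialic acid, was at 8.91, 7.67 and 8.20 in control and 7.30, 7.89 and 8.74 in knockdown, a difference of -0.29 ± 0.42 (SE, interval -1.25 to 0.68; limma adjusted p = 0.998). The ends of its range were array 1 of the controls and array 4 of the knockdown arrays.

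Genes that make, convert or carry sialic acid showed no common direction with St6gal1. Of 8 such genes 5 were tested, with 3 above and 2 below control, where 52.3% of all genes were above. Their median difference was 0.041 log2 units and 0 passed the limma threshold. The sign of this median turned without array 4 (-0.0093) or array 5 (-0.0018). It also turned with detection p-values under 0.01 required on all 6 arrays (-0.034, over 4 genes). Gne, whose enzyme starts sialic acid synthesis, was at 0.38 ± 0.29 (SE), from 0.15 without control array 3 to 0.64 without control array 2. Cmas, which activates sialic acid as a nucleotide sugar, was at 0.041 ± 0.16. Slc35a1, the carrier that brings this nucleotide sugar into the Golgi, was at -0.35 ± 0.21. The arrays of the groups overlapped for all 3 genes. Of 6 genes for sialidases, a sialidase partner and an esterase that acts on sialic acid, 2 were tested. These were the sialidase gene Neu1 at 0.030 ± 0.42 (SE) and its partner Ctsa at -0.058 ± 0.29.

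The genes for building the N-linked chains on which St6gal1 acts, enzymes and the carriers Slc35a2 and Slc35a3, gave values in both directions. Of 17 genes 14 were tested, 8 above and 6 below control, where 52.3% of all genes were above. Their median was 0.090 log2 units and 0 passed the limma threshold. Among the 8 above control, B4galt2 read 5.19 log2 units on control array 2, where the lowest detected value was 5.33. B4galt2 thus entered through the knockdown arrays alone. The groups did not overlap for 3 of the 14 genes, against 7.83% of all genes. The median was 0.010 without array 4 and 0.018 without control array 2. B4galt1 adds the galactose that St6gal1 caps, and its brightest probe was at 10.18, 9.92 and 10.15 in control and 9.77, 9.54 and 9.71 in knockdown. All knockdown arrays lay below the controls, at -0.41 ± 0.17 (SE, limma adjusted p = 0.998), but its second detected probe was at 0.039. B4galt3, a relative of B4galt1, was at 0.29 ± 0.17 and at 0.11 on its second probe. Fut8, which adds the core fucose, was at 9.19, 8.82 and 8.72 in control and 9.46, 9.51 and 9.34 in knockdown, with no overlap. The Fut8 difference was 0.53 ± 0.19 (SE, limma adjusted p = 0.998), and 0.29 on its other detected probe.

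Of 16 genes of mucin-type O-linked chains, the substrates of St3gal1 and St6galnac4, 7 were tested and 6 were above control, against 52.3% of all genes, with a median of 0.17 log2 units that was 0.075 without control array 2 and 0.099 without array 6. None of these 7 genes passed the limma threshold and none had separate groups. Of 12 genes that make or break down gangliosides, the products of St3gal5, 9 were tested, 1 above and 8 below control, where 52.3% of all genes were above, and 0 passed the limma threshold. Their median of -0.19 was -0.32 without array 4, -0.099 without array 5 and -0.11 without array 6. The largest of these differences was that of Psap, whose protein is cut into the activators of lysosomal glycolipid breakdown. The groups did not overlap for 1 of the 9 tested genes, Psap, against 7.83% of all genes. Psap was at 13.50, 13.46 and 13.63 in control and 12.71, 12.44 and 12.98 in knockdown. Its difference was -0.82 ± 0.19 (SE, limma adjusted p = 0.982), and its other detected probe was at -0.85.

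Of 14 genes for the cutting of the St6gal1 protein or the placing of Golgi enzymes 11 were tested. Of these, 7 were above and 4 below control, where 52.3% of all genes were above. Their median of 0.12 log2 units was 0.023 without array 4, 0.065 without control array 3 and 0.082 without control array 1. Bace1, the protease that cuts St6gal1 protein free of the Golgi, was at 0.12 ± 0.24 (SE) with overlapping groups, and its sign turned without control array 2 (-0.042) or array 6 (-0.044). Cog7, a subunit of the complex that keeps sialyltransferases in place, was at 6.91, 6.97 and 7.06 in control and 6.51, 6.65 and 6.42 in knockdown. These groups did not overlap, at -0.46 ± 0.16 (SE, limma adjusted p = 0.998). Cog7 was the 1 gene without overlap among the 11 tested, against 7.83% of all genes. Of 14 readers of galactose and sialic acid and known substrates of St6gal1 9 were tested. Of these, 7 were above and 2 below control, where 52.3% of all genes were above, and the largest of their differences was 0.31. Their median of 0.090 was -0.021 without array 4, 0.18 without array 5 and 0.15 without array 6. Among the 7 above control, Cd33 read 5.22 log2 units on control array 2, where the lowest detected value was 5.33. Cd33 thus entered through the knockdown arrays alone.

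**Figure D4:**
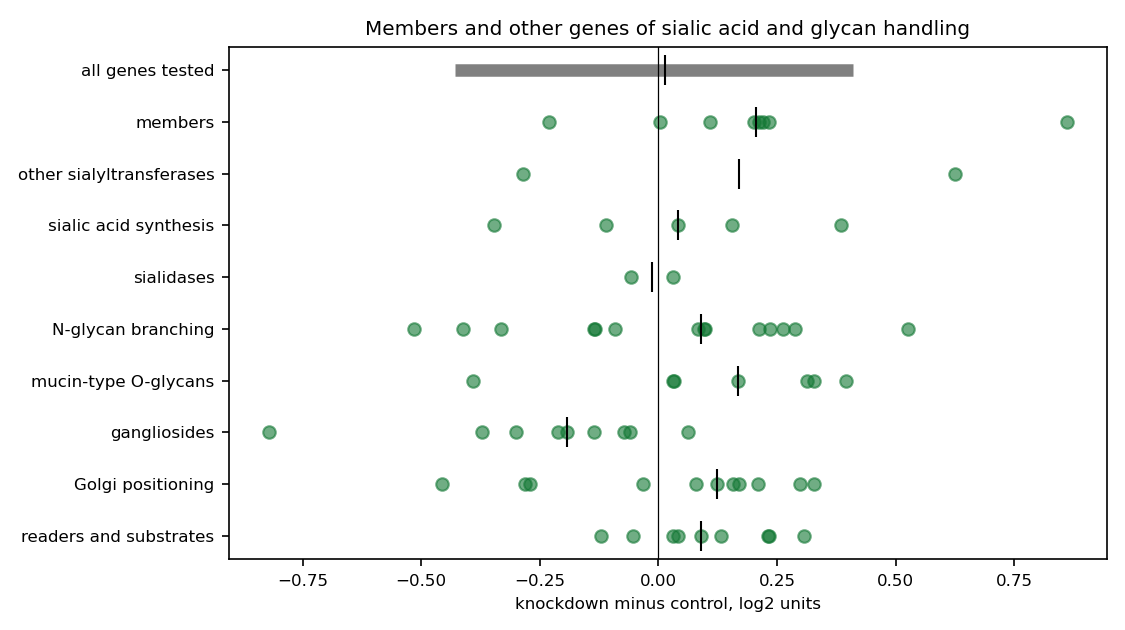
Difference between knockdown and control, in log2 units, for the tested sialyltransferases and for the genes of 8 lists of sialic acid and glycan handling, with 1 point for each gene and a tick at each median. The grey bar spans the 5th to 95th percentile of all 9200 genes, -0.43 to 0.41. St6gal1 (0.86) and Psap (-0.82) are the points farthest from 0.

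The genes whose profile over the 6 arrays was most like that of St6gal1 were Aqr, Nufip2, Serpina3j, Usp28 and Pik3cb, with Pearson's r from 0.976 to 0.993. Their differences between knockdown and control were smaller than that of St6gal1, from 0.38 to 0.46 log2 units. Serpina3j, at 0.46, read 5.11 and 5.25 log2 units on control arrays 2 and 3, where the lowest detected values were 5.33 and 5.28. Serpina3j thus entered through the knockdown arrays alone. The most opposite profiles were those of Lrrc41, Adm, Cand1, AI597479 and Gtpbp4, with r from -0.984 to -0.969. Of 9199 genes compared, 14 reached r of 0.95 or more. Over the same arrays the other 7 members had r from -0.63 for St6galnac6 to 0.76 for St3gal2. All points share the same 6 arrays and their 2 groups, and the values are given as a description only.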

How the data were processed

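RNA of 6 samples was turned into biotinylated cRNA for 1-colour Illumina bead arrays, per the labels' protocols. The scanner table deposited by the authors holds, for each probe and array, a linear intensity and the p-value of its detection, per the file headers. Its column names give the group but not the replicate number. A second table deposited by the authors holds processed intensity values with unstated processing, whose columns were straight lines of 1 scanner column each (largest deviation 0.011, slopes 0.763 to 1.29, column medians 80.0, 79.9 and 78.4 in control and 81.6, 80.2 and 79.5 in knockdown), so their scale is linear and genes were not centred. By this match, control replicates 1, 2 and 3 were arrays 1, 2 and 3, and knockdown replicates 1, 2 and 3 were arrays 4, 5 and 6. The processed values served as an alternative.

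Intensities were background-corrected, quantile-normalized and put on the log2 scale by neqc (limma 3.58.1, R 4.3.3; offset 16), which understates the differences of dim genes. Probes entered when 1 group or both had detection p-values under 0.05 on all 3 arrays (16349 of 45281 probes), and the brightest probe on average stood for its gene (9200 genes). The group difference was fitted with lmFit and eBayes on all 6 arrays, with Benjamini-Hochberg adjustment over all genes and intervals at 95%. The fit was tested on simulated data with independent noise for each gene and no differences shared by whole arrays, so it does not cover such differences. The number of arrays limits the precision.

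The platform annotation gave 34885 probes 1 symbol, 18 probes several, and left 10378 without one. By gene identifier 34807 probes matched RefSeq, with 0 names changed. Promoter windows are from the RefSeq table of GRCm38.p6. Figures were drawn with matplotlib 3.10.9. Members and lists were chosen with earlier results of these data known. Genes outside the family were named where they had no overlap between groups (up to 4 in each list of sialic acid and glycan genes), with Gne, Cmas, Slc35a1, Neu1, B4galt1 and Bace1 in any case, Tdrd7 as the check, and the 5 genes most and least like St6gal1. Ctsa and the values of single cell type markers were added after they were seen. Alternatives were other background corrections, offsets, normalizations, filters, probe rules, variance settings, array weights, the authors' values, the replicate block and leaving out each array.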

Additional observations from a re-analysis of the deposited data

How the results depend on the processing

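The count of genes past an adjusted p of 0.05 in limma was 0 under 17 of 18 alternatives and 1 when every probe was fitted by itself over 16349 probes, with a lowest adjusted p of 5.06e-06. At an unadjusted p under 0.05 the count was 303, and 98 without normalization between arrays, 782 without a filter, 814 with array weights, 528 for every probe by itself, 109 without control array 3 and 474 without knockdown array 5. More features were tested in the fit without a filter and in that of every probe; what moved the other counts was not tested. The St6gal1 difference stayed positive under all 17 alternatives, from 0.70 on the authors' processed values to 0.97 without array 4. The number of members above control was 6 or 7 of the 8 tested, and 8 of 9 without a filter, where the undetected St3gal6 also enters. Besides the probes of opposite sign, the sign turned for St3gal1 without array 4 (-0.18), for St3gal5 without control array 2 (-0.027), for St3gal4 with array weights (-0.057) and for St3gal3, already near 0, under 4 alternatives. Neu1 was at -0.45 without array 4 and 0.47 without array 5, and Cmas at -0.0093 without array 4. St8sia2 was at 0.051 without array 4, 0.044 without control array 1 and 0.082 with array weights. With array weights the median of the Golgi list was 0.016 and that of the readers -0.0021, and without a filter that of the O-linked chain list was -0.0048. Cog7 was at -0.30 without background correction. The replicate block, fitted on the authors' processed values because their samples are labelled with the replicate number, left 0 genes and put St6gal1 at 0.70. At an unadjusted p under 0.05 in limma the block counted 432 genes, against 257 on the same values without it. With the block the SE went from 0.25 to 0.16 for St6galnac2 and from 0.15 to 0.16 for St6gal1. The pairing check gave correlations of -0.10, 0.13 and 0.59 between samples sharing a number, against -0.49 to 0.23 between samples of different numbers. Values were centred within each group of 3 for this check, so the correlations depend on each other and cannot decide whether the numbers are pairs. The main fit did not treat the numbers as pairs. Signals near background, as for St3gal6, give no usable difference.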

Other observations

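St6galnac2 had a second probe on the array, ILMN_2940642, whose values were 238, 85.2 and 370 scanner units on control arrays 1, 2 and 3 and 95.3, 84.3 and 90.0 on knockdown arrays 4, 5 and 6. It was detected on 2 control arrays and 1 knockdown array and so was not tested. Its high values on control arrays 1 and 3 were not shared by the brighter St6galnac2 probe, ILMN_1256285, which read 628, 500.0 and 370 on the control arrays and 1234, 859 and 401 on the knockdown arrays. On control array 3 both probes read 370. Both probes name the same transcript record in the annotation. This gene was singled out after its values were seen.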
